A study of Rattus norvegicus with 18 samples.

Results

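Weak H3K4me3 peaks of intermediate width were examined in cultured Schwann cells of the rat, 1225 of the 16364 merged peaks (7.49%). A peak was taken when it lay on chromosomes 1 to 20, was 700 to under 2500 bp wide, had its nearest other peak over 2000 and up to 200000 bp away, and held under 10 RCPM in untreated cells, where RCPM is the number of reads per 1000000 reads in peaks (CPM) and per kb of peak width, averaged over the 3 control libraries. These limits on width and gap were met by 9332 peaks, of which 13.1% were weak and 8107 were stronger. The peaks were thus chosen by their measured level in the control libraries. Every comparison with control is given here as a description with no test, and the test was kept for the 2 times after washout, whose libraries the limit on level did not use. The merged peak set was made from the peaks of all treatments, so the treated libraries had a part in which peaks exist and in their widths and gaps, and a peak weak in control may be listed because it was called after treatment. CPM values printed for single peaks are also divided by each library's normalization factor (TMM), and RCPM values are not.

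All cells were primary Schwann cells, which the study's methods describe as prepared from sciatic nerves of Fisher rats, expanded in culture and used at low passage without neuregulin or forskolin. Control cells received no cAMP. The treated cells received a membrane-permeable cAMP analog for 30 min, followed by a washout of 30 min (called 30 min here) or of 3.5 h (3 h 30 min). Its dose is 100 μM in the labels' sample field and 50 μM in their protocol field. Each condition had 3 ChIP libraries, and each of these had a library of genomic input DNA, for 18 libraries in all. A second sequencing run is mentioned in the labels of the third 30 min library and its input. The labels do not say whether replicates were separate cultures or animals, so the p-values measure only the spread between these samples, which may be technical.

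Trimethylation of lysine 4 on histone H3 is laid down by methyltransferases of the SETD1 and MLL (KMT2) complexes and removed by the iron-dependent demethylases of the KDM5 family. The mark is known for its high levels at active promoters, and lower levels are known at promoters of little activity and at some enhancers. Schwann cells ensheathe the axons of peripheral nerves, and cAMP is a known signal in their differentiation. The peaks were not assigned to genes, promoters or repeats, since the genome tables at hand are of another assembly (GRCr8) than the files (Rnor_6.0), and no sequence was read for the same reason. Peaks are named by the identifiers in the files, and the labelled cell type could not be checked against marker genes.

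In untreated cells the weak peaks held 2.33 to 9.998 RCPM with a median of 7.11, against a median of 36.9 in the stronger peaks of the same width class. Only 37 of them were under 4 RCPM, 291 lay between 4 and 6, 495 between 6 and 8 and 402 between 8 and 10. The lowest were Peak_9682 on chromosome 16 (2.33 RCPM), Peak_8425 on chromosome 11 (2.85 RCPM) and Peak_13019 on chromosome 6 (2.97 RCPM). The limit cut through a continuous range, because the highest members, Peak_10544 and Peak_3984, were at 9.998 and 9.99 RCPM and the first peaks beyond it, Peak_532 and Peak_3841, were at 10.004 and 10.016 RCPM.

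The weak peaks were also narrower. Their median width was 1021 bp against 1579 bp in the stronger peaks, 47.3% were under 1 kb against 11.2%, and 4.49% reached 2 kb against 21.9%. Their median gap to the nearest peak was 22087 bp against 26509 bp, and 29.6% lay within 10 kb of another peak against 22.6%. The nearest peak held more H3K4me3 per kb in 87.6% of cases and held 10 RCPM or more in 75.5%. It was itself a weak mid-width peak in 15.5% of cases, whereas this was so for 8.03% of the stronger peaks. They made up between 9.76% of the mid-width peaks of a chromosome (chromosome 9) and 19.8% (chromosome 12, 69 of 349). Width and level both come from the same ChIP reads, so the difference in width is a description and no test of it was made.

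**Figure D1:**
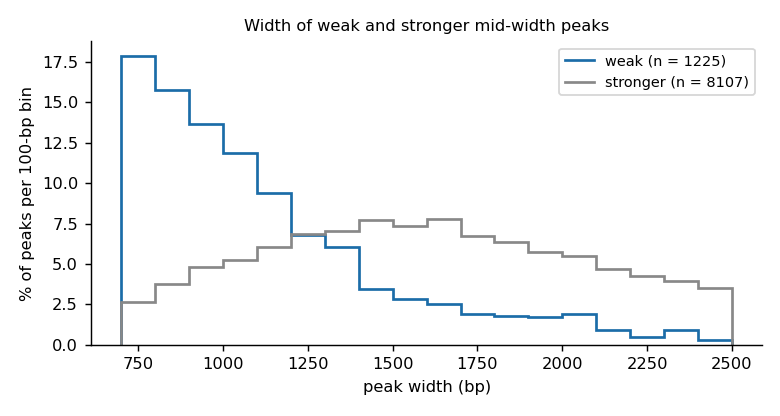
Width of the 1225 weak and 8107 stronger mid-width peaks, as the percentage of peaks (y axis) in each 100-bp bin of width in bp (x axis). Weak peaks gather below 1 kb (47.3% against 11.2%), and stronger peaks spread over the whole range with a median of 1579 bp.

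The weak peaks stood above genomic input in every library. In input DNA they held about as many reads per kb as the stronger peaks, with a ratio of weak to stronger between 0.985 and 1.09 in the 9 input libraries. In the ChIP libraries the same ratio was 0.162 to 0.226. Scaled to all aligned reads, the ChIP signal at the weak peaks exceeded that of the matched input 5.07 to 15.3 times, and at the stronger peaks 22.7 to 85.6 times. Against the pooled inputs of a condition, 1217 of the 1225 weak peaks were at least 2-fold enriched in all 3 conditions, 1024 (83.6%) at least 4-fold and 160 (13.1%) at least 8-fold, a level that 97.2% of the stronger peaks reached. Inputs were unequal, since the third control input and the third 30 min input held 675044 and 835518 reads in peaks, against 27344 to 177468 in the other 7, and were 3.08 and 3.63 times denser within the weak peaks than outside peaks, against 1.04 to 2.29 times in the others.

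Reads in peaks numbered 13762905 to 17160987 per ChIP library. A weak peak held a median of 97, 105 and 110 reads in the control libraries, of 140, 121 and 139 at 30 min, and of 116, 108 and 89 at 3 h 30 min. The share of reads outside every peak was 17.0, 20.3 and 17.7% in the control libraries, 24.9, 20.9 and 24.6% at 30 min, and 20.9, 12.8 and 11.5% at 3 h 30 min. It was thus highest at 30 min and lowest in the second and the third 3 h 30 min library. Spread over the genome this was 0.678 to 2.07 reads per kb.

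As a group, the weak peaks held their largest share of the reads in peaks at 30 min. Under loess offsets the median log2 difference from control was instead larger at 3 h 30 min (0.10) than at 30 min (0.03). RCPM is relative to each library's reads in peaks, so it does not give the amount of H3K4me3 in the cells. The study reports, from blots and immunofluorescence, a global loss of the mark soon after cAMP treatment, with later recovery. Whether the weak peaks gained or lost the mark in amount was not tested. Their median level was 6.91, 7.02 and 7.22 RCPM in the control libraries, 7.94, 7.67 and 8.44 RCPM at 30 min, and 7.40, 7.15 and 6.15 RCPM at 3 h 30 min. All 30 min libraries lay above the 6 others, the first 3 h 30 min library lay above the control libraries and the third below every other library. The means were 7.05 ± 0.157, 8.02 ± 0.394 and 6.90 ± 0.658 RCPM (SD, n = 3). In the stronger peaks the median level was 36.8 ± 0.0939, 37.0 ± 0.177 and 37.1 ± 0.0981 RCPM (SD, n = 3). The weak peaks took 0.981 ± 0.0266% of the reads in peaks in control cells, 1.13 ± 0.0585% at 30 min and 0.969 ± 0.0861% at 3 h 30 min (SD, n = 3).

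**Figure D2:**
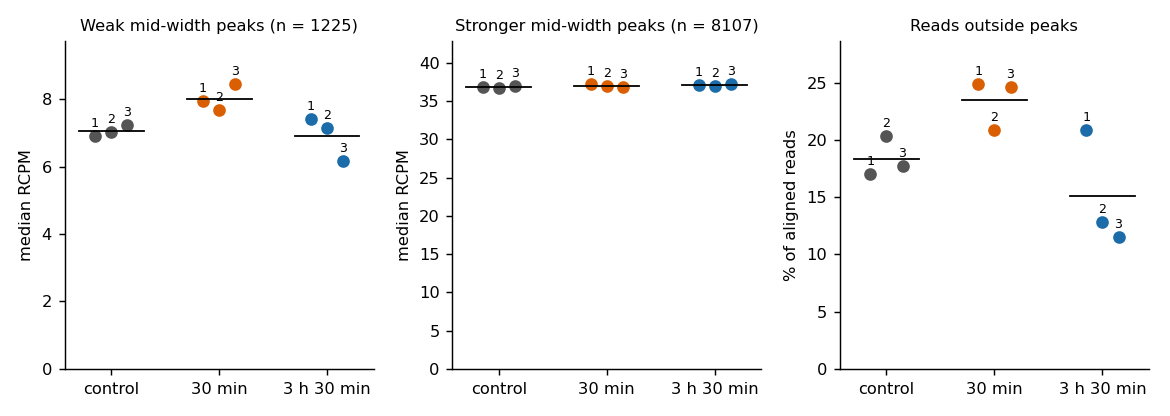
Median RCPM of the weak peaks (left), of the stronger mid-width peaks (middle) and percentage of aligned reads outside peaks (right) in each ChIP library, with the replicate number above each point and a line at the mean of each condition. The weak peaks were highest in the 30 min libraries (7.67 to 8.44 RCPM), in which the outside share was 20.9 to 24.9%, while the stronger peaks stayed between 36.7 and 37.2 RCPM.

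The group's level and the share of reads outside peaks moved together from condition to condition. With scaling to all aligned reads, in place of reads in peaks, the median log2 difference between 30 min and control went from 0.19 to 0.10 in the weak peaks, from 0.02 to -0.07 in all peaks and from 0.00 to -0.09 in the stronger ones. The distance of the weak peaks' median from that of all peaks was 0.17 with either scaling. Loess offsets by construction level out any trend of a library with how many reads a peak holds. Background reads would add 0.692 to 2.12 reads to a weak peak of median width, if they were spread evenly. Genomic input was not even, with a median density in the weak peaks of 2.45 times that outside peaks, so these numbers may be too low. The first 3 h 30 min library and the second 30 min library had nearly the same outside share (20.9% in both), and there the weak peaks were at 7.40 and 7.67 RCPM. The second control library was close to these in outside share (20.3%), with the weak peaks at 7.02 RCPM. Beyond these values the part of the outside reads in the result was not tested.

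Where the weak peaks changed from 30 min to 3 h 30 min they mostly fell, although falls and rises were nearly even under loess offsets. At an adjusted p below 0.05, 412 of 1225 (33.6%) were lower at 3 h 30 min, compared with 23.3% of all peaks, and 34 (2.78%) were higher, compared with 17.9% of all peaks (edgeR's quasi-likelihood test of all 16364 peaks with Benjamini-Hochberg adjustment). The called falls had a median log2 change of -0.67 and the called rises one of 0.36. Falls of over 2-fold were called at 98 weak peaks (8.0%, against 2.59% of all peaks), whereas all 34 rises were under 2-fold, a size that 0.00611% of all peaks exceeded. At an unadjusted p below 0.05 there were 476 falls (27.0% of all peaks fell by this measure) and 59 rises (22.6% of all peaks). The remaining 779 weak peaks were not called. Among the stronger mid-width peaks, 1470 fell and 1754 rose, with medians of -0.22 and 0.13. Of the 1528 peaks that were under 10 RCPM in control but lay outside the limits on width, gap or chromosome, 530 (34.7%) fell and 41 (2.68%) rose.

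Over all 1225 weak peaks the median log2 change was -0.16, against 0.00 over all peaks and 0.03 over the stronger ones. In 467 weak peaks (26.6% of all peaks did so) every 3 h 30 min library lay below every 30 min library, and in 67 (22.9% of all peaks) every one lay above. The balance of falls and rises depended on the scaling. It was 329 falls to 132 rises with scaling to all aligned reads (10.2% and 48.1% of all peaks), which moved the median of all peaks to 0.16 and that of the weak peaks to -0.01. It was 251 to 239 with loess offsets (20% and 26.8% of all peaks), which moved these medians to 0.04 and 0.09, so that the median change of the weak peaks turned positive. No call changed direction in any of these fits. Under each of those scalings, and under TMM with each of the 9 libraries left out in turn, 236 of the 412 falls and 16 of the 34 rises were still called. The share of all peaks that stayed called in this way is not given, so these counts describe the weak peaks alone.

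**Figure D3:**
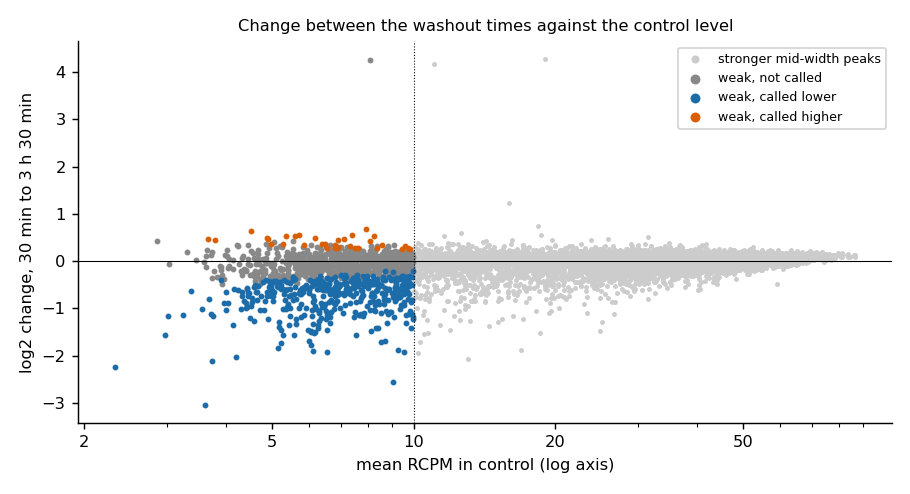
Fitted log2 change from 30 min to 3 h 30 min (y axis) against the mean control level in RCPM (x axis, log scale) for the weak peaks, coloured by call, and the stronger mid-width peaks (light grey), with a dotted line at 10 RCPM. The 412 falls reach down to a log2 change of -3.06 and the 34 rises up to 0.69, and the lone weak peak above 4, which was not called, is Peak_8957.

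The libraries at 3 h 30 min were also the most uneven. Between them the biological coefficient of variation over the weak peaks was 14.99%, against 7.05% at 30 min and 4.10% in control, and the fit shares a single estimate of the spread among conditions. With only the 6 libraries of the washout times in the fit, 346 falls and 23 rises were called. Without the third 3 h 30 min library, the lowest one, 312 falls and 35 rises were called, and without the first one 494 and 42. Leaving out the first or second 30 min library or the second 3 h 30 min library brought the rises to 18, 22 and 21. The shares of all peaks called in these fits are not given, so these counts describe the weak peaks alone. Control libraries differed by less than sampling noise over all peaks (a chi-square of 0.664 to 0.917 per degree of freedom). Over the weak peaks this value was 0.951 to 1.21. The control libraries were kept as 3 samples since their outside shares differed, but whether they are independent samples is not known.

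The falls were found over the whole range of the class. They took 37.8% of the weak peaks under 4 RCPM in control, 36.8% between 4 and 6, 33.3% between 6 and 8 and 31.3% between 8 and 10. By width they took 30.6% of the weak peaks under 1 kb and 38.0% of those of 1.5 kb or more, and the rises 1.38% and 6.95%. They took 27.9% of those within 10 kb of another peak, 36.8% at 10 to 50 kb and 34.7% beyond. On single chromosomes the share ran from 21.9% (chromosome 9, 7 of 32) to 44.4% (chromosome 2, 28 of 63). The nearest peak of a weak peak that fell was itself called lower in 33.5% of cases, against 22.2% for the weak peaks not called and 17.6% for the 34 that rose.

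The change between the times also moved with the reads that the peaks held in genomic input. The limits on level, width and gap did not use these reads, although the density given here is per kb of peak width. Input density, the pooled input reads per kb of a peak relative to that outside peaks, was 0.603 to 5.54 with a median of 2.45 over the weak peaks. It had a median of 2.09 in those that fell, of 2.58 in those not called and of 2.74 in those that rose. In the 70 weak peaks with a density under 1.5 the median log2 change was -0.75 and 51 fell (72.9%), and none rose. In the 196 at 1.5 to 2 it was -0.52, with 125 falls (63.8%) and no rise.

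At higher input density the falls became fewer. The 386 weak peaks at 2 to 2.5 had a median of -0.20 with 140 falls (36.3%), the 379 at 2.5 to 3 had -0.04 with 72 falls (19.0%), and the 194 at 3 or more had 0.01 with 24 falls (12.4%). Of the 34 rises, 29 lay in these last groups, 20 and 9 of them. Over the 1225 weak peaks Spearman's rho between input density and log2 change was 0.47 (Pearson's r 0.41), and it was 0.44 with loess offsets. These are descriptions across peaks that share the same libraries and are not independent replicates. Over the 8107 stronger peaks rho was 0.37, and the medians ran from -0.09 below 1.5 to 0.09 at 3 or more. Over the same classes the share of stronger peaks that fell ran from 42.3% to 3.92% and the share that rose from 5.99% to 34.6%.

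**Figure D4:**
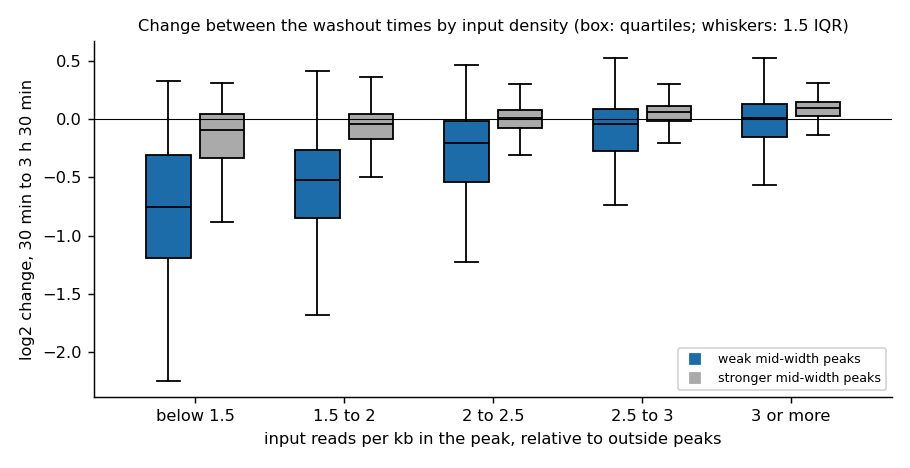
Log2 change from 30 min to 3 h 30 min (y axis) of weak (blue) and stronger (grey) mid-width peaks in 5 classes of input density relative to outside peaks (x axis); boxes give quartiles and median, whiskers reach 1.5 interquartile ranges, and points beyond are not drawn. The median of the weak peaks runs from -0.75 in the lowest class to 0.01 in the highest, and that of the stronger peaks from -0.09 to 0.09.

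In the single libraries, weak peaks of low input density were furthest below those of high input density at 3 h 30 min. Weak peaks with an input density under 2 had a median of 6.15, 5.28 and 4.08 RCPM in the 3 h 30 min libraries, and those at 2.5 or more had 7.97, 8.25 and 7.18 RCPM. At 30 min the same groups had 8.05, 7.53 and 7.97 RCPM and 7.86, 7.78 and 8.72 RCPM. In control they had 6.49, 6.68 and 6.67 RCPM and 7.03, 7.29 and 7.47 RCPM. The poor-input group was thus lower in every 3 h 30 min library than in any control or 30 min library, whereas the rich-input group overlapped between the times. The first 3 h 30 min and the second 30 min library had nearly the same outside share. There the poor-input group was at 6.15 and 7.53 RCPM and the rich-input group at 7.97 and 7.78 RCPM. In the second control library, with an outside share of 20.3%, these groups were at 6.68 and 7.29 RCPM. These are single libraries picked for their outside share, and the part of that share was not tested.

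The input libraries did not all separate the peaks alike. The weak peaks that fell held 0.743 times the input reads per kb of those not called in the third 30 min input, 0.80 times in the second 3 h 30 min input and 0.812 times in the third control input. These are also the inputs that were densest within the weak peaks. In the other 6 the ratio was 0.898 to 1.07. Pooled input counts were 21 to 237 per weak peak with a median of 80, so the density of a single peak carries counting error. What the input density stands for, and its part in the result, was not tested.

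The largest fall was at Peak_9964 (chr17:45544122-45545069), which held 3.28, 3.54 and 3.46 CPM in the control libraries, 5.45, 4.71 and 4.60 CPM at 30 min, and 1.03, 0.413 and 0.281 CPM at 3 h 30 min. The 3 conditions did not overlap, and at 3 h 30 min only 16, 6 and 4 reads were left. Its log2 change between the times was -3.06 ± 0.28 (SE), with an adjusted p of 2.06e-05 in edgeR's test. Peak_13991 (chr8:52515973-52517042), which lay 103820 bp from the next peak, held 9.64, 9.17 and 10.3 CPM in control, 13.8, 11.5 and 9.88 CPM at 30 min and 2.31, 1.72 and 1.90 CPM at 3 h 30 min. Control and 30 min overlapped there and 3 h 30 min lay far below both. Its log2 change was -2.56 ± 0.17 (SE), with an adjusted p of 3.15e-06 in edgeR's test.

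Peak_9682 (chr16:26791063-26792582), the lowest weak peak in control, held 3.8, 3.61 and 3.25 CPM there, 8.32, 6.87 and 5.66 CPM at 30 min and 2.38, 0.757 and 1.19 CPM at 3 h 30 min. All its 30 min libraries were above and all its 3 h 30 min libraries below the control libraries. Its log2 change between the times was -2.25 ± 0.27 (SE), with an adjusted p of 0.000102 in edgeR's test. Peak_9185 (chr14:44844436-44846073) was higher in level, with 17.0, 14.7 and 15.5 CPM in control, 22.1, 17.7 and 16.8 CPM at 30 min and 8.54, 3.51 and 2.60 CPM at 3 h 30 min. The first 3 h 30 min library held over 2 times the others and was still below every library of the other conditions. Its log2 change was -1.93 ± 0.27 (SE), with an adjusted p of 0.000228 in edgeR's test.

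The other 4 of the 8 largest falls were Peak_9070 (chr14:2767986-2768742), Peak_12070 (chr4:82787414-82788251), Peak_502 (chr18:30550575-30551667) and Peak_15629 (chr11:31618566-31619623), with log2 changes of -2.12, -2.03, -1.93 and -1.90. All 8 were also below control in every 3 h 30 min library. Their input density was 1.09 to 2.72, and 6 of the 8 were below 2, the exceptions being Peak_12070 (2.58) and Peak_15629 (2.72).

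The rises were smaller. Peak_6183 (chr5:140923719-140924577) held 6.86, 7.36 and 6.30 CPM in control, 7.15, 6.08 and 8.08 CPM at 30 min and 11.2, 10.7 and 12.5 CPM at 3 h 30 min. Control and 30 min overlapped and all 3 h 30 min libraries lay above them. Its log2 change between the times was 0.69 ± 0.12 (SE), with an adjusted p of 0.00106 in edgeR's test. Peak_5228 (chr3:9546512-9548710), among the widest weak peaks at 2199 bp, held 9.85, 9.79 and 10.2 CPM in control, 11.2, 8.70 and 10.2 CPM at 30 min and 15.3, 16.4 and 14.96 CPM at 3 h 30 min. Its order of conditions was the same. Its log2 change was 0.63 ± 0.10 (SE), with an adjusted p of 0.000514 in edgeR's test.

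Peak_5056 (chr20:7920614-7921984) differed from these in that its 30 min libraries were below control, at 8.67, 8.89 and 9.38 CPM against 9.56, 10.1 and 10.9 CPM, before 14.6, 12.2 and 12.8 CPM at 3 h 30 min. Its log2 change between the times was 0.56 ± 0.10 (SE), with an adjusted p of 0.00116 in edgeR's test. The other 5 were Peak_5576 (chr3:164499329-164500229), Peak_6848 (chr1:215648987-215650023), Peak_6910 (chr7:117518892-117519891), Peak_12706 (chr5:144308163-144308922) and Peak_8632 (chr12:23839849-23841289), with log2 changes of 0.54, 0.53, 0.53, 0.52 and 0.49. The calls at Peak_6848 (adjusted p up to 0.0766) and Peak_8632 (0.0501) were lost in edgeR's test when a library was left out, at Peak_6848 the first or second 30 min or the second 3 h 30 min library and at Peak_8632 the third 3 h 30 min library. All 8 lay above control in every 3 h 30 min library, and their input density was 2.52 to 3.3.

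**Figure D5:**
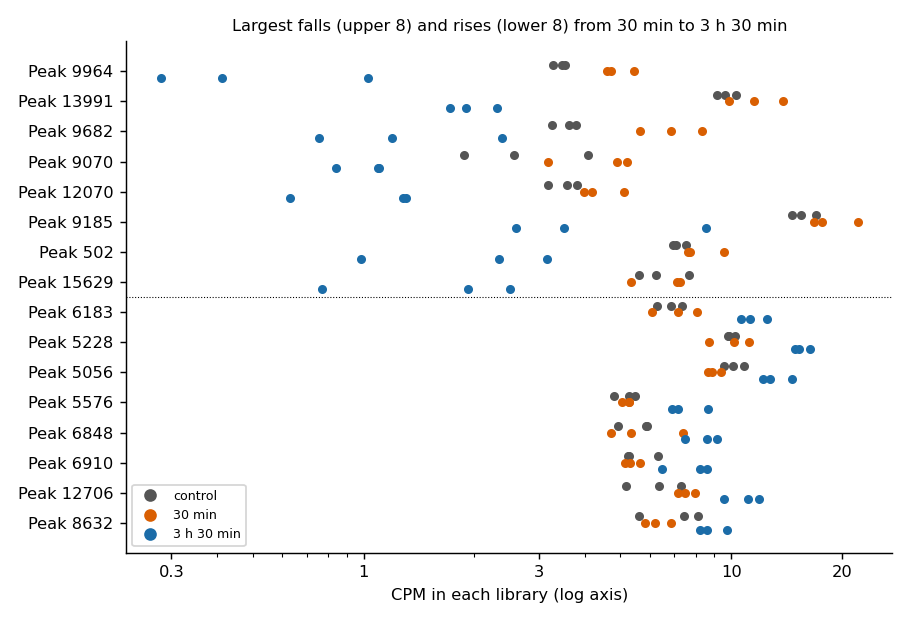
Reads per 1000000 reads in peaks after TMM scaling (CPM, x axis, log scale) in each of the 9 ChIP libraries at the 8 weak peaks with the largest fall (above the dotted line) and the 8 with the largest rise (below it) from 30 min to 3 h 30 min. Each point is a library; at every peak the 3 h 30 min points (blue) stand apart from both other conditions, by more at the falls (log2 changes of -3.06 to -1.90) than at the rises (0.49 to 0.69).

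Set beside control, with no test since control chose the peaks, most weak peaks were fitted higher at 30 min. This was so for 1115 of 1225, against 9328 of 16364 over all peaks, with a median log2 difference of 0.19 in the weak peaks. Every 30 min library lay above every control library at 437 weak peaks (18.3% of all peaks did so) and below at 8 (17.5% of all peaks). In 824 (67.3%) the 30 min mean was the highest of the 3 conditions, against 35.6% of all peaks, and in 263 (21.5%) all 30 min libraries lay above the 6 others, against 9.49% of all peaks. The control values that chose the peaks enter these differences, and their part was not tested.

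Among weak peaks whose 30 min and control libraries did not overlap, Peak_11227 (chr20:23056313-23057012) had the largest difference upward at 30 min, with 2.12, 2.5 and 2.21 CPM in control, 6.09, 3.99 and 3.98 CPM at 30 min and 2.05, 2.41 and 1.97 CPM at 3 h 30 min. Control and 3 h 30 min overlapped and 30 min stood above both. Peak_9682, Peak_12146 (chr4:117531497-117532308) and Peak_9706 (chr16:48168323-48169307) came next, with log2 differences of 0.97, 0.82 and 0.76 against 1.04 at Peak_11227. The largest differences downward with no overlap were at Peak_3484 (chr1:80038746-80039601), Peak_4126 (chr17:12207689-12208433), Peak_4586 (chr19:53834837-53836025) and Peak_5210 (chr3:5942993-5943706), with -0.52, -0.35, -0.24 and -0.20.

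At 3 h 30 min the weak peaks lay on both sides of control, with a median log2 difference of 0.01. Every 3 h 30 min library was below every control library at 264 (24.8% of all peaks) and above at 214 (22.8% of all peaks). The 3 h 30 min libraries also entered the comparison between the times, so a called peak is drawn to the same side of control. For the counts that follow, the shares among all called peaks are not given. Of the 412 weak peaks that fell between the times, 404 had a 3 h 30 min mean below control, 245 of them with no overlap, and their median level was 6.82 RCPM in control, 8.21 RCPM at 30 min and 4.98 RCPM at 3 h 30 min. All 34 that rose lay above control at 3 h 30 min with no overlap, at 6.84, 7.15 and 9.24 RCPM in the same order. Among those with no overlap, the lowest against control were Peak_9964, Peak_13991, Peak_15629 and Peak_502, with log2 differences of -2.53, -2.29, -1.88 and -1.71. The highest were Peak_12706, Peak_6183, Peak_11435 (chr3:23268541-23270631) and Peak_5498 (chr3:147596666-147597614), at 0.78, 0.74, 0.71 and 0.70.

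A single library differed more than 3-fold from the median of the others of its condition at 4 weak peaks. At Peak_9786 (chr17:396943-397698), Peak_12193 (chr4:126683457-126684507) and Peak_9870 (chr17:18561591-18562315) it was the third 3 h 30 min library that was low, with 12, 15 and 7 reads. The fourth was Peak_8957 (chr14:6673772-6674650), which held 153, 144 and 4 reads in the control libraries, 6, 3 and 3 at 30 min and 214, 3 and 5 at 3 h 30 min. It was thus high in the first and second control and the first 3 h 30 min library and nearly empty in the 6 others. Its log2 change between the times, 4.26 ± 1.69 (SE), missed the threshold with an adjusted p of 0.0592 in edgeR's test.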

How the data were processed

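The authors trimmed reads, aligned them to Rnor_6.0 with BWA, discarded multi-mapped reads and duplicates, called peaks with MACS2 followed by filtering on reproducibility, merged the peaks of all treatments and counted reads with HTSeq. The deposited values are raw counts per merged peak. Removal of duplicates caps full peaks more than weak ones. Reads outside peaks were left out of library sizes. The 18 single-library files and the combined table held 0 differing values.

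Counts of all 16364 peaks in the 9 ChIP libraries were tested with edgeR 4.0.16 (quasi-likelihood, TMM, R 4.3.3). The program was run on data simulated with a single spread for all peaks (a biological coefficient of variation of 1.96%). The weak peaks varied more than this, so the simulation does not give their rate of false calls. RCPM used reads in peaks as library size, and CPM used reads in peaks multiplied by each library's TMM factor (0.995 to 1.01). Named peaks were the 8 largest falls and rises between the washout times among called peaks with no overlap, the 4 largest differences from control each way with no overlap, the lowest and highest in control, those nearest the limit and those where a library stood apart. The peaks, lists and tests were chosen with earlier results of these data known, and the classes of input density after their values were seen. The gene lists fixed at the start were not used here. DESeq2 1.42.0, Python 3.11.15, pandas 2.3.3, scipy 1.17.1 and matplotlib 3.10.9 were also used.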

Additional observations from a re-analysis of the deposited data

How the results depend on the processing

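The number of falls among the weak peaks from 30 min to 3 h 30 min (412) was 251 with loess offsets, 264 with loess offsets and a replicate block, and 269 at an adjusted p below 0.01, and leaving out 1 library gave 311 to 494. The rises (34) numbered 132 with scaling to all aligned reads, 239 with loess offsets, 283 with loess offsets and the block, 13 at an adjusted p below 0.01, and 18 to 49 with 1 library left out. DESeq2 called 360 and 24, edgeR's exact test 399 and 29. Shares of all peaks are given above only for the main fit, loess offsets without a block and scaling to all aligned reads. Counts from the other settings, with those of the block, describe the weak peaks alone. The median log2 difference between control and 30 min (0.19) moved to 0.0988 with all aligned reads and 0.0321 with loess offsets, and that from 30 min to 3 h 30 min (-0.16) to -0.0073 and 0.0888. Loess offsets remove a library's trend with abundance by construction, and the cause of these moves was not tested. The 16 peaks named for the largest falls and rises kept their direction in every fit that held them, and at least 10 counts in every library removed Peak_9964 and Peak_12070.

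Deviations of same-numbered libraries from their condition's mean correlated by -0.08 to 0.37 over the weak peaks, above 0.1 in 6 of 9 pairs, and by -0.21 to 0.35 over all peaks, above 0.1 in 4 of 9. Since this was not so for every pair and the labels give no shared source, the numbers were not taken to pair the samples. With the number as a block, 412 falls and 31 rises were called. Sequencing depth limits single peaks, since most values rest on about 100 reads.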

Other observations

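The pattern of libraries at Peak_8957, high in the first and second control and the first 3 h 30 min library and low in the other 6, was looked for in all peaks after its values were seen, as peaks with at least 20 reads in each of 3 libraries and over 3 times the CPM of every other library. It was shared by 3 other peaks, Peak_7999 (chr10:40742447-40743564), Peak_8639 (chr12:25020773-25021867) and Peak_5923 (chr4:170856817-170857208). By this measure no other set of 3 libraries had such a peak.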
